A study of Mus musculus with 18 samples.

Results

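The interferon-inducible GTPases described here were 10 genes, chosen by name from 18668 rows of a gene expression table: the guanylate-binding proteins Gbp2, Gbp3, Gbp5 and Gbp7, and the immunity-related GTPases Irgm1, Irgm2, Igtp, Iigp1, Ifi47 and Tgtp1. All 10 were found. RNA sequencing was done on macrophages of mice on a C57BL6 background, grown from bone marrow with the growth factor M-CSF (BMDM), using their total RNA. The 18 libraries fell into 6 groups of 3 biological replicates. Cells of Apoe-/- mice, and of Apoe-/-/Treml4-/- double knockout (DKO) mice, received vehicle (untreated), 10 µg/ml oxidised LDL (oxLDL 10) or 60 µg/ml oxLDL (oxLDL 60). All groups thus lacked the lipoprotein gene Apoe, and no wild-type cells were included. The series gives an exposure of 16 h, whereas the study's methods name a longer one. The treatment protocol attached to the samples describes LPS, which no sample title names, and the labels list sequencing runs of different read lengths without saying which libraries were on which. In bulk RNA of this kind, fewer cells making a transcript and less transcript per cell cannot be told apart.

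Interferon-inducible GTPases are among the most strongly induced products of interferon-gamma, and to a lesser degree of type I interferon, in mouse macrophages. Guanylate-binding proteins resemble dynamin, assemble on the vacuoles of intracellular pathogens, and aid inflammasome activation. The immunity-related GTPases comprise the GKS proteins (here Iigp1, Ifi47 and Tgtp1), which load onto such vacuoles and disrupt them, and the GMS proteins (Irgm1, Irgm2 and Igtp), which sit on the cell's own membranes and keep the GKS proteins inactive there. Interferon receptors signal through JAK kinases and STAT factors, which bind the gamma-activated site (GAS) or, with IRF proteins, the interferon-stimulated response element (ISRE).

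The members lie in a few clusters of the mouse genome (positions from RefSeq on GRCm38.p6, the mm10 build named for the data). Gbp5, Gbp7, Gbp3 and Gbp2 follow each other on chromosome 3, from chr3:142496934-142522344 for Gbp5 to chr3:142620663-142638008 for Gbp2. Irgm1 (chr11:48865245-48871420), Tgtp1 and Ifi47 form one group on chromosome 11, and Igtp (chr11:58199556-58207592) and Irgm2 (chr11:58214977-58222783) are neighbours further along it. Iigp1 lies apart from these clusters. RefSeq promoter windows of 300 bases, 250 before and 50 after the annotated start of transcription, were at hand for 9 members, all but Iigp1, with 2 windows for Gbp3. These were searched for the ISRE core GAAANNGAAA, which reads TTTCNNTTTC on the other strand, and for the GAS, TTCNNNGAA, which reads the same on both strands.

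The sequences carrying these motifs are shown as a description. The members were chosen by name as interferon-inducible genes, so their motif shares are not independent of that choice. Whether the motifs take part in the changes under oxLDL was not tested. The ISRE core was found in 8 of 9 members, against 3.44% of all 32851 windows, and the GAS in 5 of 9, against 8.3%. Both occurred in Gbp5, Gbp7, Irgm2, Igtp and Tgtp1, against 0.454% of all windows. Each line gives 80 bases upstream of the start, 5′ to 3′ on the gene's strand, with motif bases in capitals. The GAS matches of Gbp5 and the farther one of Gbp7 lie outside the stretches shown. The windows are chr11:58199476-58199555 (plus strand) for Igtp, chr11:58214878-58214957 (plus) for Irgm2, chr11:48992279-48992358 (minus) for Tgtp1, chr11:48871421-48871500 (minus) for Irgm1, chr3:142620569-142620648 (plus) for Gbp2, chr3:142530248-142530327 (plus) for Gbp7 and chr3:142496734-142496813 (plus) for Gbp5.
Igtp: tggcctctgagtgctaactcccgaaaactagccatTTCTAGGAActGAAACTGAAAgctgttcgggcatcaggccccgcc
Irgm2: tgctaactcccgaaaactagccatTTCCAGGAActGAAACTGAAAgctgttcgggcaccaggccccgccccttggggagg
Tgtp1: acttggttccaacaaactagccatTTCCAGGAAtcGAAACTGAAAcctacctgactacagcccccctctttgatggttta
Irgm1: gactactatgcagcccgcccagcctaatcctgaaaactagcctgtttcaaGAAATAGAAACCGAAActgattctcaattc
Gbp2: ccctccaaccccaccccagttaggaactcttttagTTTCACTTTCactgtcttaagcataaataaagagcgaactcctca
Gbp7: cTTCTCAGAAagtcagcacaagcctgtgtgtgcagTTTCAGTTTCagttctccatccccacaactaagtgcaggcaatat
Gbp5: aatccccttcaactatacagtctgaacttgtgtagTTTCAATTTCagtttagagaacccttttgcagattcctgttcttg

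In Igtp, Irgm2 and Tgtp1 the GAS lay directly upstream of the ISRE core, beginning 45, 75 and 88 bases before the start, with the ISRE core beginning 34, 64 and 77 bases before it. The 250 bases upstream of Igtp and Irgm2 were alike, with 197 of 214 aligned bases identical (68.9% counting gaps). The other 20 pairs among these 7 genes reached 46.1% to 55.4%. In Irgm1, as in the first Gbp3 window, the capitals are 2 overlapping ISRE cores. The Ifi47 window held neither motif. A match of letters is a description and not evidence that a factor binds there. Among tested genes with a window, the ISRE core was present in 12.5% of the 682 genes that fell at oxLDL 60 in Apoe-/- cells, 2.64% of the 720 that rose, and 3.95% of all 10153. The GAS differed less, at 11.9%, 9.58% and 8.18%. The genes that fell include the members with a window.

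**Figure D1:**
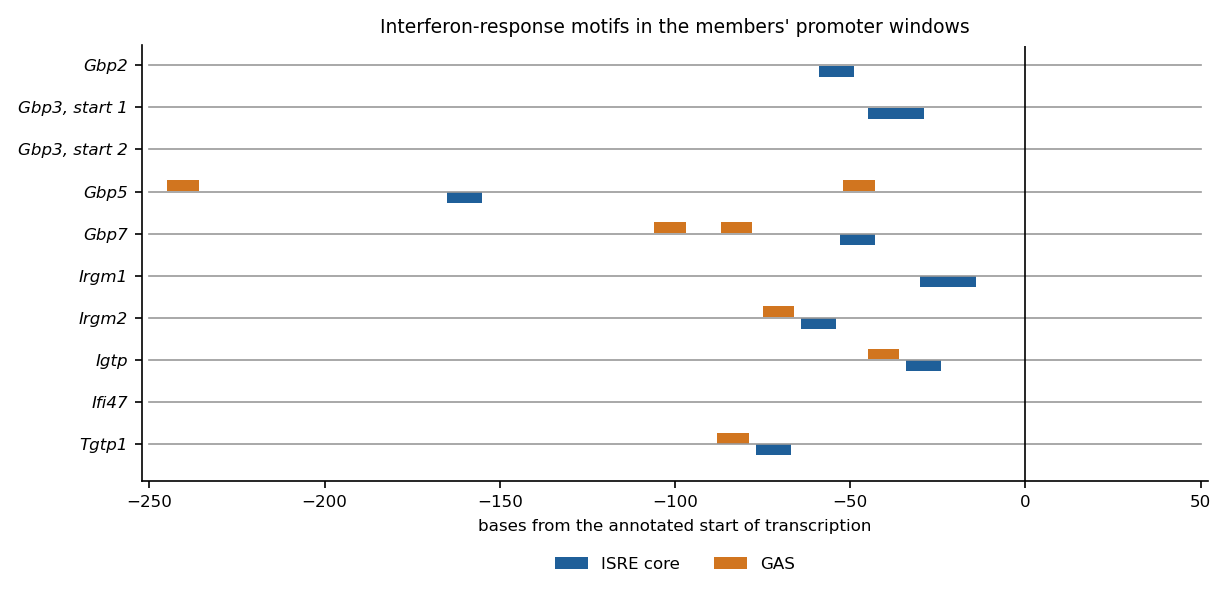
Positions of the ISRE core (blue) and GAS (orange) in the promoter windows of 9 members, with the horizontal axis in bases from the annotated start of transcription and one line per window (Gbp3 has 2). In Irgm2, Igtp and Tgtp1 the GAS sits just upstream of the ISRE core, and Ifi47 and the second Gbp3 window hold neither.

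Expression is given as RPKM, read counts scaled by gene length and library size, as deposited, so levels can be compared between genes. The libraries held 39.7 to 54.2 M reads (M, mega) by estimate from the steps between low values, so 3 reads on a gene of 1 kb were worth 0.0554 to 0.0755 RPKM. Treml4 was 1.86 to 8.39 RPKM in Apoe-/- libraries and at most 0.0116 RPKM in DKO libraries, as labelled. Residual Apoe reads were 0.348 to 4.13 RPKM. Csf1r, the M-CSF receptor that defines macrophages, was 409 to 630 RPKM throughout. The interferon-gamma producing lymphocytes left little signal: the 4 T cell markers summed to 0.325 to 0.780 RPKM and the 3 NK cell markers found to 0.0491 to 0.655 RPKM. Not all other marker sets were so low. The 4 neutrophil markers summed to 24.1 to 70.3 RPKM, with untreated means of 31.7 in Apoe-/- and 53.1 in DKO, although Ly6g was at most 0.0260 RPKM. The 4 fibroblast markers summed to 0.228 to 6.7 RPKM. Xist was expressed at 7.25 to 14.5 RPKM in 6 of the 18 libraries (replicate 2 of Apoe-/- and replicate 3 of DKO, at each treatment), against at most 0.0690 RPKM in the other 12, so the animals were of mixed sex. The replicate numbers followed the animals within a genotype, and counts of members were also computed without these 6 libraries.

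In untreated Apoe-/- cells the listed levels of the members spanned more than 2 orders of magnitude, but only through Tgtp1. The value of Tgtp1 is uncertain, because its reads were divided with its near copy Tgtp2, and the sum of both was 15.8 RPKM. Without Tgtp1 the means ran from 3.09 (Gbp5) to 60.1 RPKM (Irgm1). Irgm1, a regulator of the GKS proteins and of autophagy, was highest at 60.1 ± 13.7 RPKM (SD, n = 3), followed by Ifi47 (40.3 ± 10.41), Igtp (23.8 ± 5.08), Gbp2 (21.2 ± 6.60), Irgm2 (15.6 ± 3.81) and Gbp3 (9.49 ± 3.06). Iigp1 (4.03 ± 1.35), Gbp7 (3.46 ± 0.974) and Gbp5 (3.09 ± 0.884) were lower, and Tgtp1 was listed at 0.423 ± 0.0793 RPKM. Neighbours in this order overlapped in their 3 libraries, except that Ifi47 lay above Igtp, Gbp3 above Iigp1, and Gbp5 above Tgtp1 without overlap. Untreated libraries varied more for the members than for most genes: the highest of the 6 was 1.80-fold the lowest in the median member and 1.30-fold in the median tested gene (RPKM + 0.1). Apoe-/- replicate 1 was the lowest of the 6 for 8 of 10 members, and Apoe-/- replicate 3 the highest for 8. After scaling each library by its median ratio to the others, DKO replicate 1 was instead the lowest for 8, while Apoe-/- replicate 3 was still the highest for 7. The matching shares over all tested genes were not computed.

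To ask whether oxLDL changed these transcripts, limma was fitted to log2(RPKM + 0.1) of 12838 genes that reached 0.1 RPKM in at least 3 libraries, and calls required an adjusted p under 0.05 together with a difference of at least 1.4-fold. The filter level was reached in 17 or 18 libraries by 9 members and in 10 libraries by Tgtp1, 6 of them untreated and none at oxLDL 60, so the passing of Tgtp1 rests on the groups where it is high. At oxLDL 60 all 10 members were called lower in Apoe-/- cells, where 6.78% of all tested genes were, and all 10 in DKO cells, against 7.31%. Every oxLDL 60 library lay below every untreated library of its genotype for all 10, as it did for 14.9% of genes in Apoe-/- and 28.3% in DKO. The median log2 fold change over the members was -2.23 in Apoe-/- and -2.10 in DKO, and over all genes 0.06 and -0.06. With 3 libraries against 3, an exact two-sided permutation test of a single gene cannot go below p = 0.10, and each member reached that value in both genotypes.

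**Figure D2:**
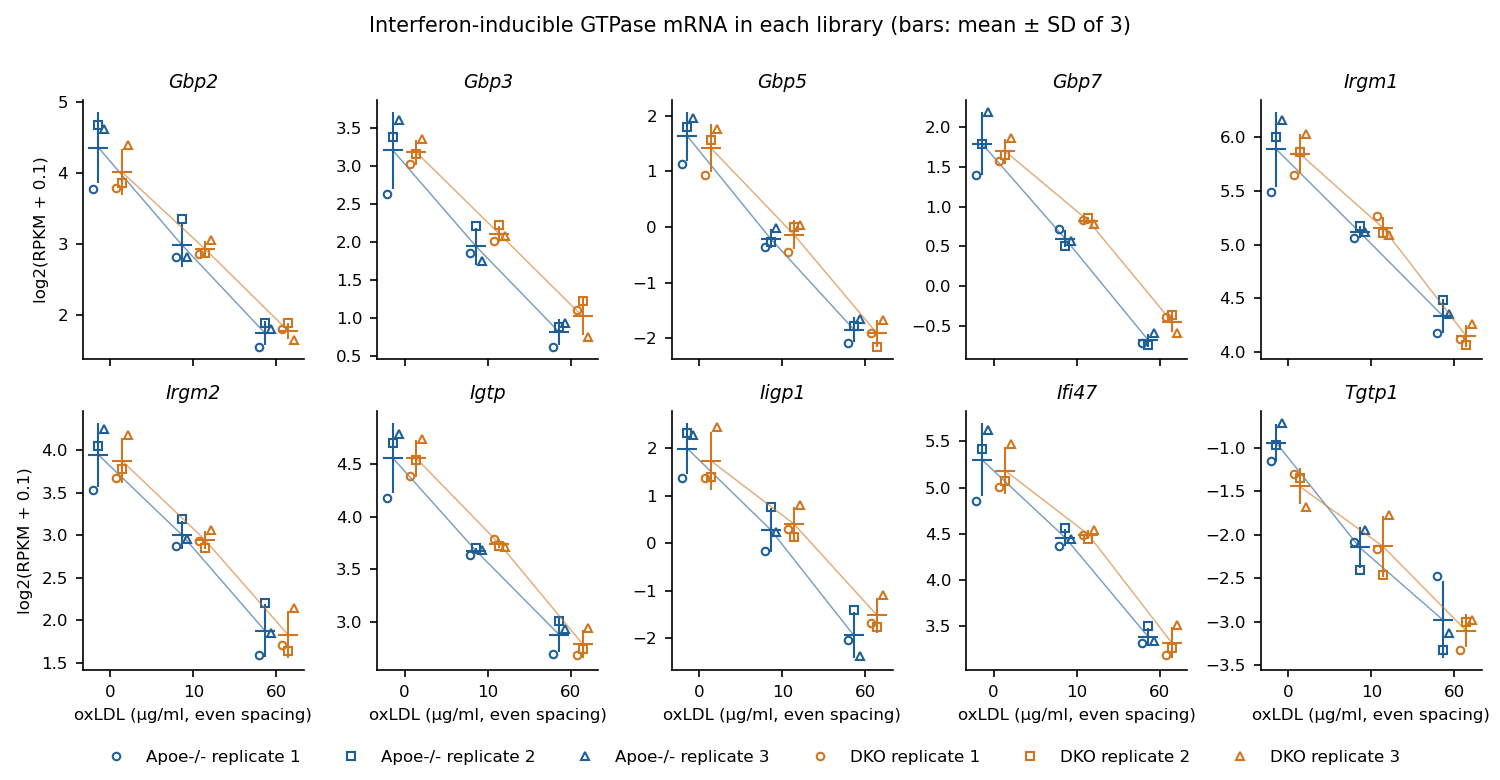
Expression of the 10 members in each library as log2(RPKM + 0.1), by oxLDL dose in µg/ml (doses evenly spaced, not to scale), with Apoe-/- in blue and DKO in orange. Symbols mark replicates and bars give mean ± SD of 3 libraries. Each member steps down from untreated to oxLDL 10 to oxLDL 60, and the genotypes run close together.

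Among the guanylate-binding proteins, Gbp5, which aids assembly of the NLRP3 inflammasome, changed most. Its RPKM in Apoe-/- replicates 1 to 3 was 2.09, 3.38 and 3.78 untreated, 0.681, 0.733 and 0.887 at oxLDL 10, and 0.134, 0.191 and 0.217 at oxLDL 60. In DKO cells it was 1.81, 2.85 and 3.29, then 0.635, 0.893 and 0.924, then 0.167, 0.124 and 0.212. No 2 treatments overlapped in either genotype, and 5.86% of the untreated mean was left at oxLDL 60 in Apoe-/- and 6.32% in DKO. The log2 fold change was -3.47 ± 0.23 (SE) in Apoe-/- (limma adjusted p = 7.38e-09) and -3.33 ± 0.23 in DKO (limma adjusted p = 1.48e-08). These low values correspond to as few as 39.5 reads per library.

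Gbp2, which coats pathogen vacuoles, started at a higher level than Gbp5. Apoe-/- libraries held 13.6, 25.4 and 24.6 RPKM untreated, 6.93, 10.1 and 6.90 at oxLDL 10, and 2.82, 3.58 and 3.39 at oxLDL 60. DKO libraries held 13.8, 14.5 and 20.9, then 7.18, 7.22 and 8.203, then 3.37, 3.57 and 3.03. The doses separated without overlap in both genotypes, although untreated Apoe-/- replicate 1 stood at the level of the DKO libraries. At oxLDL 60 Gbp2 differed by -2.62 ± 0.21 in Apoe-/- (limma adjusted p = 5.78e-08) and -2.24 ± 0.21 in DKO (limma adjusted p = 3.98e-07) on the log2 scale.

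Gbp3 and Gbp7, of the same chromosome 3 cluster, followed. Gbp3 went from 6.10 to 12.0 RPKM in untreated Apoe-/- libraries to 1.43 to 1.81 at oxLDL 60 (log2 fold change -2.40 ± 0.20), and Gbp7 from 2.54 to 4.48 to 0.498 to 0.566 (-2.48 ± 0.15). In DKO cells the changes were -2.16 ± 0.20 and -2.14 ± 0.15. Gbp7 had the smallest adjusted p of the members in Apoe-/- (limma adjusted p = 2.57e-09).

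The genes of the GMS proteins, the regulators that protect host membranes, fell less than those of the guanylate-binding proteins. At oxLDL 60 their log2 fold changes were -2.06 to -1.55 in Apoe-/-, against -3.47 to -2.40 for the guanylate-binding proteins. In DKO they were -2.05 to -1.69, against -3.33 to -2.14. Irgm1 in Apoe-/- replicates 1 to 3 was 44.9, 63.9 and 71.4 RPKM untreated, 33.2, 36.0 and 34.6 at oxLDL 10, and 18.0, 22.2 and 20.3 at oxLDL 60. In DKO cells it was 50.1, 57.8 and 65.0, then 38.4, 34.35 and 34, then 17.3, 16.7 and 19.1. Again no library of one treatment reached those of another, but 33.6% of the untreated mean in Apoe-/- and 30.7% in DKO remained at oxLDL 60. Its log2 fold change was -1.55 ± 0.13 in Apoe-/- (limma adjusted p = 1.58e-07), with a 95% interval of -1.83 to -1.26, and -1.69 ± 0.13 in DKO. Even at oxLDL 60 Irgm1 was the highest of the members, above the untreated level of 6 of them in the mean of 3 Apoe-/- libraries.

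Igtp, which sits on the endoplasmic reticulum, had 18.0 to 27.5 RPKM in untreated Apoe-/- libraries, 12.4 to 12.9 at oxLDL 10 and 6.38 to 7.95 at oxLDL 60, a log2 fold change of -1.67 ± 0.13 at the higher dose. Irgm2, a protein of the Golgi that restrains non-canonical inflammasome activation, had 11.5 to 18.9, then 7.25 to 9.03, then 2.91 to 4.51 RPKM (-2.06 ± 0.19). In DKO cells these changes were -1.76 ± 0.13 and -2.05 ± 0.19.

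The GKS effectors differed among themselves. Iigp1, the best-studied of the proteins that load onto parasite vacuoles, fell furthest of all members in Apoe-/- cells. Its libraries held 2.48, 4.85 and 4.77 RPKM untreated, 0.797, 1.59 and 1.09 at oxLDL 10, and 0.143, 0.275 and 0.0943 at oxLDL 60. In DKO cells they held 2.50, 2.51 and 5.33, then 1.12, 0.987 and 1.64, then 0.211, 0.194 and 0.367. The treatments did not overlap, while the libraries with Xist, Apoe-/- replicate 2 and DKO replicate 3, were highest of their group at all 3 treatments in both genotypes. The change at oxLDL 60 was -3.93 ± 0.34 in Apoe-/- (limma adjusted p = 1.58e-07) and -3.25 ± 0.34 in DKO (limma adjusted p = 1.53e-06), leaving 4.23% and 7.46% of the untreated mean.

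Ifi47, another GKS protein, behaved in size like the GMS genes, with 28.9 to 49.3 RPKM in untreated Apoe-/- libraries, 20.6 to 23.5 at oxLDL 10 and 9.82 to 11.2 at oxLDL 60 (-1.92 ± 0.15). In DKO cells it changed by -1.87 ± 0.15. Irgm1, Igtp and Ifi47 were thus the 3 members with the highest untreated levels and the 3 smallest falls in Apoe-/- cells. The pseudocount of 0.1 understates the change of genes that come near 0.1 RPKM, here Gbp5, Iigp1 and Tgtp1.

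Tgtp1 is nearly identical in sequence to its neighbour Tgtp2, and reads that fit both had evidently been divided by an estimate, since 2 of its 18 values lay between 0 and 1e-06 RPKM. Its own values are therefore uncertain. They were 0.3503, 0.411 and 0.508 RPKM in untreated Apoe-/- libraries and 0.305, 0.293 and 0.212 in untreated DKO libraries, and all lay below 0.08 at oxLDL 60. The log2 fold change at oxLDL 60 was -2.03 ± 0.24 in Apoe-/- and -1.66 ± 0.24 in DKO. The sum of Tgtp1 and Tgtp2 went from 15.8 ± 5.87 RPKM untreated to 5.94 ± 0.526 at oxLDL 10 and 1.63 ± 0.223 at oxLDL 60 in Apoe-/- (SD, n = 3), and from 13.7 ± 3.75 to 6.09 ± 0.576 and 1.65 ± 0.225 in DKO. At most 2.67% of that sum was listed under Tgtp1 in any group.

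The lower dose gave smaller changes. At oxLDL 10 all 10 members were called lower in Apoe-/- cells, where 2.04% of all genes were, and 9 in DKO cells, against 1.69%. Tgtp1 was the exception, at -0.69 ± 0.24 (limma adjusted p = 0.15), although its sum with Tgtp2 was called at -1.12 (limma adjusted p = 0.0055). Median log2 fold changes were -1.20 in Apoe-/- and -0.90 in DKO, and all libraries of the members lay below the untreated ones, as for 6.16% and 8.9% of genes. In DKO cells the count fell to 6 without untreated replicate 3, with Irgm2, Iigp1 and Ifi47 no longer called, and to 7 without oxLDL 10 replicate 1 or replicate 2, with Iigp1 and Ifi47 no longer called. It was also 7 without the libraries that express Xist, when Irgm1 and Ifi47 were no longer called.

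Both doses were compared with the same untreated libraries, so the 2 sets of changes are not independent. Oxidised LDL at 10 µg/ml gave 43.4% to 59.1% of the log2 change seen at 60 µg/ml across the members in Apoe-/- cells, and 37.2% to 49.7% in DKO. The highest of these shares was that of Tgtp1, followed by Gbp5 at 53.0%, and the pseudocount compresses the oxLDL 60 change of both. The next highest in Apoe-/- cells was 52.8% for Gbp3. Tested directly, oxLDL 60 was below oxLDL 10 for all 10 members in Apoe-/- (3.54% of all genes called lower) and for all 10 in DKO (3.74%), with median differences of -1.13 and -1.14. The libraries of the 2 doses did not overlap for any member, as for 15.5% and 25.8% of genes. Iigp1 had the largest such difference, -2.22 ± 0.34 in Apoe-/- and -1.92 ± 0.34 in DKO. The Tgtp1 call in Apoe-/- (-0.83 ± 0.24) was lost on leaving out oxLDL 10 replicate 1 or 3, or oxLDL 60 replicate 2 or 3, with adjusted p from limma between 0.0752 and 0.128, and in DKO on leaving out oxLDL 10 replicate 3 (limma adjusted p = 0.0529).

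**Figure D3:**
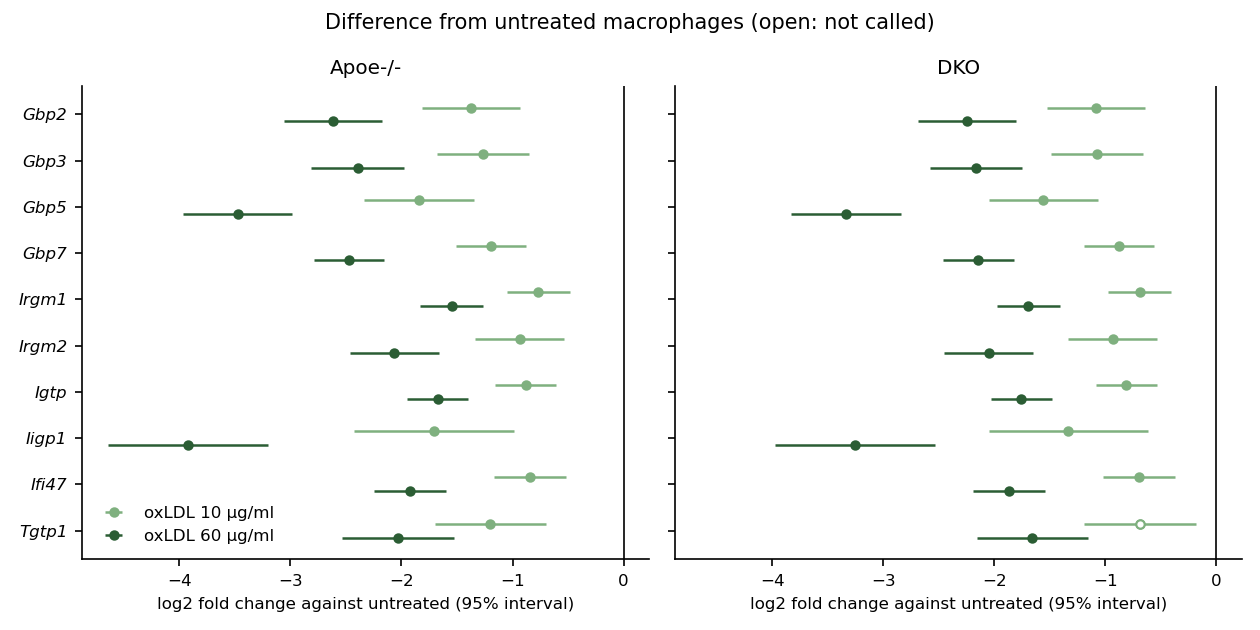
Log2 fold change of each member against untreated cells of the same genotype at oxLDL 10 (light) and oxLDL 60 (dark), with 95% intervals from limma, for Apoe-/- (left) and DKO (right). Filled points were called. All intervals lie below 0, and Gbp5 and Iigp1 lie furthest left at oxLDL 60 in both genotypes.

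Whether loss of Treml4 changed the members was asked by comparing DKO with Apoe-/- cells at each treatment. None of the 10 was called at any treatment by limma, where 0.21%, 0.0857% and 0.125% of all genes were called untreated, at oxLDL 10 and at oxLDL 60. No member had an unadjusted limma p under 0.05, against 2225, 1252 and 1011 of all 12838 tested genes in the same order. In untreated cells all 10 differences were below 0, between -0.50 and -0.00, where the median over all tested genes was 0.09. The members varied together, so these signs are not separate observations, and the share of all genes below 0 was not computed. The largest difference was that of Tgtp1, -0.50 with a 95% interval of -1.0 to 0.00 (limma adjusted p = 0.293). It was the only member whose DKO libraries all lay below those of Apoe-/-, as for 1.23% of genes. The values of Tgtp1 are uncertain, as described above. Its sum with Tgtp2 overlapped between the genotypes, at 10.1 to 21.9 RPKM in untreated Apoe-/- libraries and 11.3 to 18 in untreated DKO libraries. At oxLDL 10 the differences ran from -0.06 to 0.22. Gbp7 was highest (0.22, interval -0.09 to 0.54), and its 3 DKO libraries, like those of Igtp, lay above the Apoe-/- ones, as for 8.98% of genes. At oxLDL 60 they ran from -0.19 to 0.42, and all members overlapped.

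The response to oxLDL was also compared between genotypes, as an interaction. No member was called for oxLDL 10, like 0% of all genes, or for oxLDL 60, against 0.0156%. Again no member had an unadjusted limma p under 0.05, against 246 and 1256 of all 12838 tested genes. For oxLDL 60 the fall of Iigp1 was smaller in DKO by 0.67 ± 0.48, with an interval of -0.34 to 1.69 (limma adjusted p = 0.623). The intervals of the 10 members together reached from -0.56 to 1.69. For the well-measured Igtp the interval was -0.47 to 0.30, so a genotype effect on its response beyond about 1.4-fold lay outside it, whereas for Iigp1 a 3-fold effect did not. A p that misses the threshold does not show that the genotypes were alike.

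**Figure D4:**
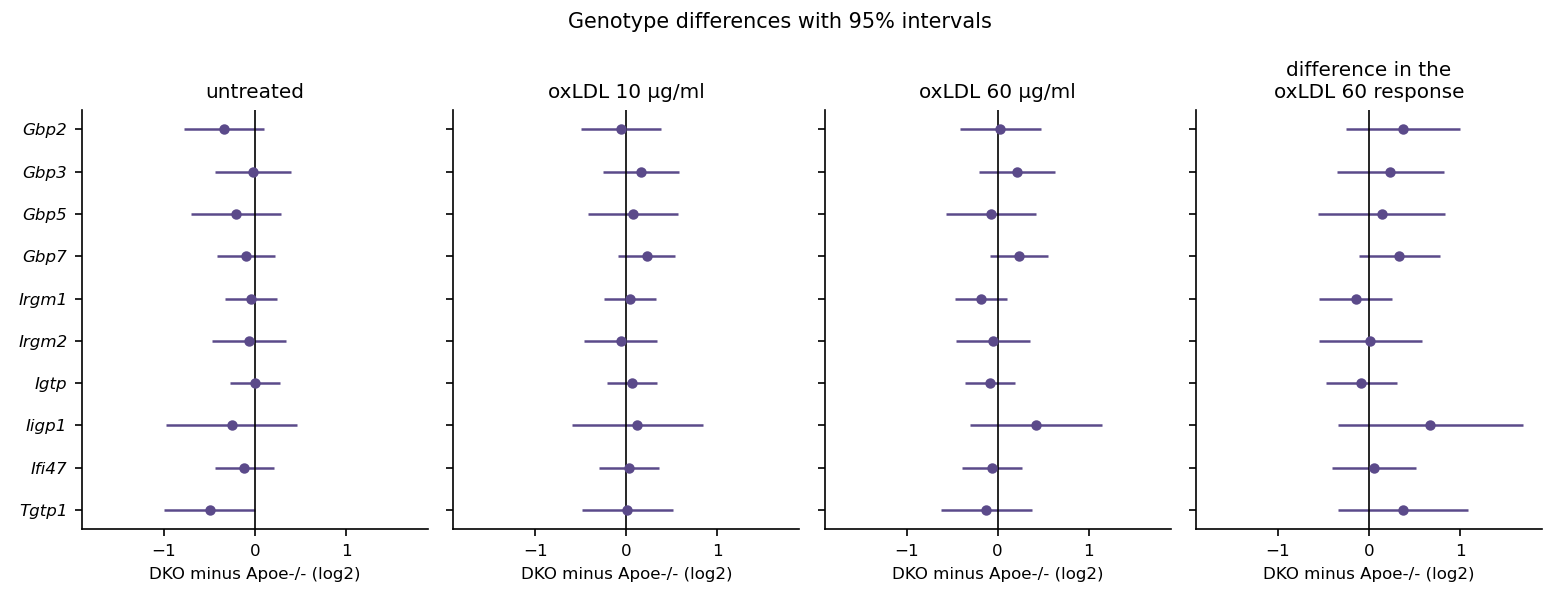
DKO minus Apoe-/- on the log2 scale for each member, untreated, at oxLDL 10 and at oxLDL 60, and (right) the difference between genotypes in the response to oxLDL 60, with 95% intervals from limma. The intervals include 0 in all 4 panels, reach 0.00 for Tgtp1 in untreated cells, and are widest for Iigp1.

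Other GTPases of these families were taken from fixed lists. Of 4 further guanylate-binding proteins tested, 3 were called lower at oxLDL 60 in each genotype. Gbp6 changed by -2.64 ± 0.33, Gbp9 by -2.02 ± 0.20 and Gbp4 by -1.89 ± 0.22 in Apoe-/-. Gbp8 did not pass, at -0.10 ± 0.22. Of 9 further immunity-related GTPases and relatives, 8 were called lower in each genotype, led by Gm4951 (-3.20 ± 0.42), Tgtp2 (-3.13 ± 0.22) and Gm12250 (-2.78 ± 0.19), and Irgq was not (-0.14 ± 0.09). With a pseudocount of 1 the Gbp4 call was lost in both genotypes, and 5 of the 9 were called in Apoe-/-. Of 5 giant or dynamin-like GTPases, 4 were called lower in each genotype, among them the antiviral Mx1 (-3.24 ± 0.19) and Mx2 (-3.02 ± 0.21), and the giant GTPase gene Gm4070 (-2.31 ± 0.13), which shares reads with its near copy Gvin1. List medians in Apoe-/- were -1.96, -1.05 and -2.31.

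In the signalling pathway upstream, 11 of 17 genes were called lower at oxLDL 60 in each genotype and none higher. Both subunits of the interferon-gamma receptor were called lower in Apoe-/- cells, by less than any member. There Ifngr1 went from 66.8 ± 9.84 to 46.8 ± 3.96 RPKM (-0.51 ± 0.16, limma adjusted p = 0.025) and Ifngr2 from 82.0 ± 9.27 to 55.9 ± 0.684 (-0.54 ± 0.08). The Ifngr1 call was lost without untreated replicate 2 or 3, or oxLDL 60 replicate 1 or 3, in Apoe-/-, and without untreated replicate 3 or oxLDL 60 replicate 2 in DKO. The type I receptor subunit Ifnar1 changed by -0.59 ± 0.09, and Ifnar2 by -0.11 ± 0.08, which did not pass.

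Of the kinases, Jak2, which is bound to Ifngr2, went from 18.5 ± 2.43 to 8.19 ± 0.169 RPKM (-1.16 ± 0.08). Jak1 (-0.07 ± 0.06) and Tyk2 (-0.44 ± 0.09) were not called in Apoe-/-, and Tyk2 passed the fold limit without untreated replicate 1 (-0.53) or oxLDL 60 replicate 2 (-0.50), and in DKO without untreated replicate 2 (-0.49). Some transcription factors of the pathway were called lower and others were not. In Apoe-/- libraries Irf1, which binds ISRE sites, went from 17.4 to 29.3 RPKM to 5.60 to 7.84 (-1.87 ± 0.22), and Stat2 (-1.59 ± 0.13) and Irf9 (-0.88 ± 0.08), which pair in the type I complex, were also called.

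Irf8 (-0.08 ± 0.07), Stat3 (-0.27 ± 0.06) and the phosphatase gene Ptpn2 (-0.07 ± 0.09) did not pass. Irf2 was called at -0.71 ± 0.26 in Apoe-/-, but that call was lost without untreated replicate 2 or 3 or oxLDL 60 replicate 1 or 2, and in DKO (-0.76 ± 0.26) without any one untreated replicate or oxLDL 60 replicate 2. Feedback inhibitors fell too. Socs3 went from 14.4 ± 3.98 to 0.921 ± 0.272 RPKM (-3.82 ± 0.20), and Socs1 from 0.801 ± 0.156 to 0.375 ± 0.191 (-0.98 ± 0.23).

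The ligand itself was hardly detectable. Ifng was listed at 0 in 17 of 18 libraries and at 0.0189 RPKM in the other, and Ifnb1 reached at most 0.0792 RPKM, so neither was tested. Of the genes for cytokines that induce or act with interferon-gamma, 4 were tested, and all 4 were called lower at oxLDL 60 in each genotype (2 in Apoe-/- with a pseudocount of 1). In Apoe-/- cells Tnf went from 93.2 ± 10.1 to 31.8 ± 5.78 RPKM (-1.56 ± 0.15), Il27 from 1.201 ± 0.1003 to 0.313 ± 0.0644 (-1.67 ± 0.17), and Il18 from 3.54 ± 0.593 to 2.41 ± 0.0550 (-0.52 ± 0.13), the last below the fold limit without untreated replicate 3. Il12b was 0.222 to 0.296 RPKM untreated and at most 0.0177 at oxLDL 60 (-1.68 ± 0.18, a change that depends on the pseudocount).

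Other interferon targets were compared to see how far the fall extended. All 17 type I interferon-stimulated antiviral genes were called lower at oxLDL 60 in each genotype, with a median of -2.03 in Apoe-/-, led by Ifit1 (-3.96 ± 0.29), Ifit3 (-3.64 ± 0.29) and Cmpk2 (-3.27 ± 0.19). Of 17 interferon-gamma targets of other kinds, 11 were called lower in each genotype (7 with a filter of 1 RPKM), with a median of -0.69. Cxcl10, a T cell attractant, went from 94.4 ± 24.7 to 2.11 ± 0.320 RPKM (-5.39 ± 0.23), a larger fall than that of any member. Nos2, the inducible nitric oxide synthase, changed by -3.42 ± 0.21 and Cxcl11 by -2.56 ± 0.24, and both were at or near 0 at oxLDL 60. Those not called in Apoe-/- were Cd274, Cd74, H2-Aa, H2-Eb1, Psmb8 and Tap2.

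**Figure D5:**
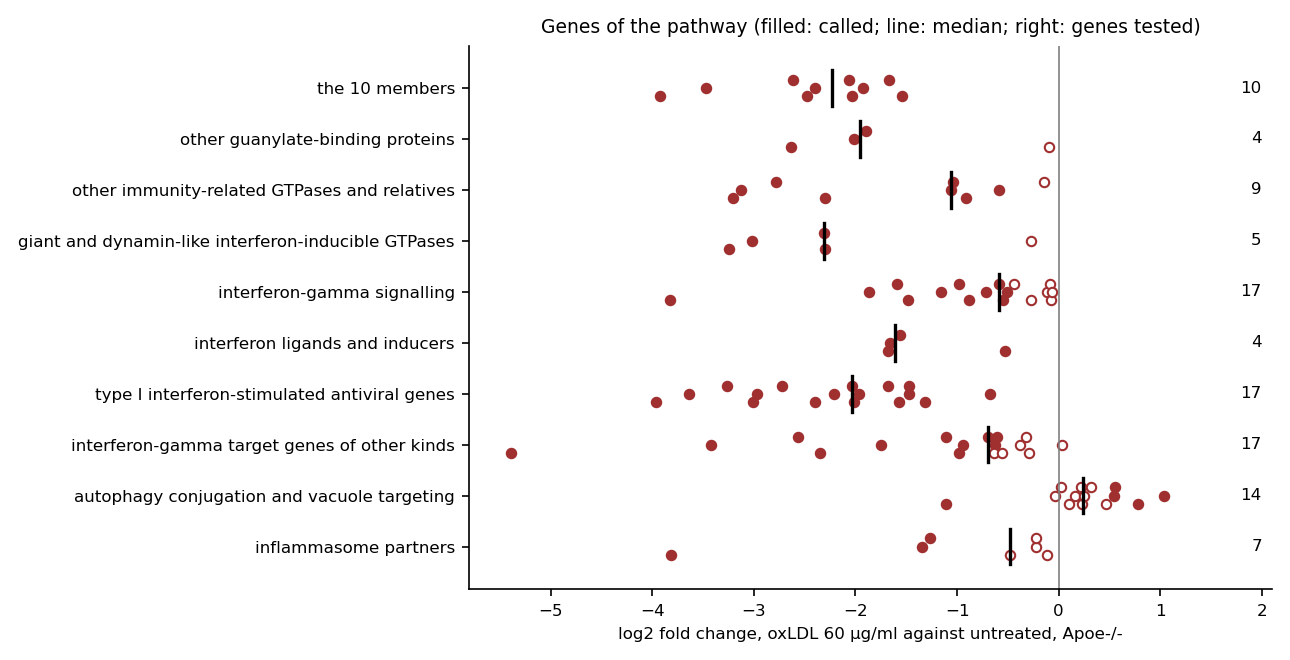
Log2 fold change at oxLDL 60 against untreated in Apoe-/- cells for each tested gene (points, filled when called) of the 10 members and 9 fixed lists, with list medians as black lines and the number tested at right. The medians run from -2.31 for the giant and dynamin-like GTPases, with the members at -2.23, to 0.24 for the autophagy list, of which 4 genes lie to the right of 0 as filled points.

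Partners of the GTPases moved in both directions. Guanylate-binding proteins and GKS proteins reach vacuoles through the autophagy conjugation system. A list of its genes with others of vacuole targeting had 1 of 14 called lower and 4 called higher in Apoe-/- at oxLDL 60. In DKO 1 was called lower and 2 higher. Across all tested genes 7.13% were called higher in Apoe-/- and 4.87% in DKO. Sqstm1, the p62 adaptor, rose from 392 ± 31.7 to 803 ± 70.7 RPKM (1.03 ± 0.14), and Gabarapl1 from 41.2 ± 5.48 to 70.6 ± 4.21 (0.78 ± 0.11). The total called in this list was 3 without untreated Apoe-/- replicate 1. Trim21, an interferon-inducible ubiquitin ligase, was the gene that fell (-1.11 ± 0.10). Of 7 inflammasome genes, 3 were called lower in Apoe-/- and 4 in DKO, with Il1b at -3.81 ± 0.38, Nlrp3 at -1.35 ± 0.07 and Casp4, the caspase that guanylate-binding proteins help activate, at -1.27 ± 0.14 in Apoe-/-. Casp1, Pycard and Aim2 were not called in either genotype.

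The 10 members varied together. Over the 18 libraries, Pearson's r between the log2 levels of 2 members was 0.895 to 0.996 over 45 pairs, with a median of 0.978, which mostly reflects the treatment that the libraries share. After subtracting group means the median r was 0.669, ranging from -0.20 to 0.971. Among 10093 other genes with a mean of at least 1 RPKM, those whose pattern was most like the members' mean were Parp14 (r = 0.997), Ifi203, Zbp1, Dtx3l and Ifih1 (each r = 0.996, n = 18 libraries), and 243 genes had r above 0.95. Neighbouring genes were also examined. Of 20 tested genes outside the GTPase families within 250 kb of a member, a set chosen after the members' values were known, 2 (Psme2b and Sh3bp5l) were called lower at oxLDL 60 in Apoe-/- and the same 2 in DKO. The median of the 20 was 0.04 in Apoe-/- and -0.12 in DKO.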

How the data were processed

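The authors deposited 1 table of RPKM values. Per the labels, reads were aligned to mm10 with STAR; the study's methods name a core workflow with RNA-SeQC and Subread, and the annotation is not given in the sources used here. Reads that fit several genes were evidently shared by estimation. Groups came from the labels. RPKM values were analysed as log2(RPKM + 0.1) after a filter of 0.1 RPKM in 3 libraries, in 1 limma model (3.58.1, R 4.3.3) of 6 groups with trended empirical Bayes and Benjamini-Hochberg adjustment over 12838 genes; calls needed adjusted p under 0.05 and 1.4-fold. The code recovered known changes in simulated data. Depth was estimated from value steps, so intervals cover the spread between libraries. Intervals and p-values rest on the spread between replicates within groups, pooled over the 6 groups and adjusted by empirical Bayes over genes. The series calls these replicates biological, and the main fit did not pair the libraries of an animal.

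The members and lists were chosen with earlier results of these data known. Named genes were the members, all tested genes of the signalling and ligand lists (1 is not reported here), the 3 largest changes in each other list, label checks, and the 5 genes most like the members. Genes named as not called, neighbours and motifs were added as descriptions. Same-numbered libraries of a genotype deviated together (r = 0.18 to 0.69 over 18 pairs), so animals pair them across treatments, and a replicate block was fitted as an alternative. Promoters came from RefSeq GRCm38.p6. Protein sequences were not used here.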

Additional observations from a re-analysis of the deposited data

How the results depend on the processing

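Under 19 alternatives per oxLDL comparison (pseudocounts of 0.01 and 1, no filter or 1 RPKM, median ratio scaling, only the groups compared, sex, no fold limit, no trend, the replicate block, Tgtp1 summed with Tgtp2, and libraries left out), the number of members called stayed at 9 or 10, except for oxLDL 10 in DKO, where it was 6 to 10. The sum with Tgtp2 and the removal of Apoe-/- animal 1 were chosen after seeing the data. Of 1134 member values, 1106 stayed on their side of the threshold, 27 were no longer called, 1 became called and 0 changed direction. With the animal as a fixed replicate block the counts were 10, 10 and 10 in Apoe-/- and 9, 10 and 10 in DKO, and 0 for the interactions. For the genotype comparisons the block was either the replicate number or the animal as a random effect, and the counts were 0 under both. Same-numbered libraries of different genotypes had a median r of -0.17, so the replicate number does not pair animals between genotypes. These blocks changed no count of members. Leaving out 1 library at a time gave 10 to 10 members for oxLDL 10 and oxLDL 60 against untreated in Apoe-/-, 9 to 10 between doses in either genotype, 6 to 9 for oxLDL 10 in DKO, 10 to 10 for oxLDL 60 in DKO, and 0 to 0 for the genotype and interaction comparisons. Iigp1 at oxLDL 10 in DKO was also lost with a pseudocount of 0.01, no filter, only the groups compared or no trend, and Tgtp1 with a pseudocount of 1 in all 5 comparisons where it was called. Of the uncalled genes, 2 changed sign: Irf8 at oxLDL 60 in Apoe-/- was 0.0172 without libraries that express Xist, and Jak1 in DKO was 0.0122 under median ratio scaling. Among the gene lists at oxLDL 60 in Apoe-/-, a pseudocount of 1 took the other immunity-related GTPases from 8 called to 5 and the ligands from 4 to 2, a filter of 1 RPKM took the interferon-gamma targets from 11 to 7, and without the fold limit the autophagy list went from 5 to 9 and the inflammasome list from 3 to 5. Of 1095 genotype and interaction values of members, 76 changed sign and 0 were called. Median ratio scaling shifted the untreated genotype difference by -0.10 and the oxLDL 60 interaction by 0.13 on the log2 scale.

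Counts over all genes moved more. Without the fold limit 904 genes against 358 were called at oxLDL 10 and 3873 against 1786 at oxLDL 60 in Apoe-/-, 510 against 290 and 3319 against 1564 in DKO, and 1731 against 829 and 2000 against 726 between doses in Apoe-/- and DKO. The block gave 449 at oxLDL 10 in DKO, and leaving out DKO untreated replicate 3 or oxLDL 10 replicate 2 gave 185 and 186. Between untreated genotypes 12 to 308 were called against 27, at oxLDL 10 4 to 110 against 11, and at oxLDL 60 3 to 74 against 16, with the highest counts without libraries that express Xist; the oxLDL 60 interaction gave 0 to 5 against 2. Without DKO untreated replicate 3 the untreated count was 75. The division of reads with Tgtp2 and low read numbers limit Tgtp1 throughout, and depth limits Gbp5 and Iigp1 at oxLDL 60.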

Other observations

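Libraries that express Xist were often the highest of their group for the members, but not in untreated Apoe-/- cells. Within each group of 3, the library with Xist (replicate 2 of Apoe-/-, replicate 3 of DKO) was the highest for 2, 7 and 6 of 10 members in Apoe-/- cells untreated, at oxLDL 10 and at oxLDL 60, and for 9, 6 and 7 of 10 in DKO cells. The matching share over all tested genes was not computed. The members varied together and the libraries of an animal are paired, so these counts are not separate observations. With 1 such animal per genotype, sex and the individual animal cannot be told apart. In these 6 libraries 4 Y-linked genes summed to at most 0.0515 RPKM, against 41.7 to 63.4 RPKM in the other 12.

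The 7 macrophage markers differed in direction at oxLDL 60. Fcgr1, the high-affinity IgG receptor, was called lower in both genotypes (-0.80 ± 0.17 in Apoe-/-, -0.91 ± 0.17 in DKO), as was Lyz2 (-0.61 ± 0.19 and -0.71 ± 0.19), while Mertk, an efferocytosis receptor, was called higher (0.68 ± 0.20 and 0.70 ± 0.20). Adgre1 was called lower in Apoe-/- (-0.50 ± 0.11) and not in DKO (-0.47 ± 0.11). Csf1r (-0.34 ± 0.11 and -0.37 ± 0.11), Itgam (-0.25 ± 0.10 and -0.24 ± 0.10) and Cd68 (0.42 ± 0.09 and 0.29 ± 0.09) were not called. The part of these markers in the fall of the GTPases was not tested.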
